A study of Mus musculus with 12 samples.

Results

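Iron storage and transport in macrophages was followed here through 10 genes, chosen by name from a table of 22243 genes. They were the ferritin chains Fth1 and Ftl1, the exporter Slc40a1, the transferrin receptor Tfrc and its partner Hfe, the divalent metal transporters Slc11a1 and Slc11a2, the siderophore-binding protein Lcn2, and the iron regulatory proteins Aco1 and Ireb2. All 10 were listed, and all 10 averaged 1 TPM or more across libraries, as did 8780 genes of the table. TPM is a transcript abundance that is corrected for transcript length and scaled to the same total in every library. The samples were bone marrow-derived macrophages (BM-Mɸs) of C57Bl/6 mice, grown with M-CSF from CMG14-12 conditioned medium and M1-activated with IFN-γ (100 U/mL, 16 h) followed by LPS (100 ng/mL, 6 h). Cultures of 6 LysMCre/ErbB4-floxed mice (ErbB4myeKO) were set beside cultures of 6 ErbB4-floxed littermates without the Cre (ErbB4FF). Both genotypes carried the floxed allele and both received the same stimulation, so no unstimulated culture was analysed here. The Cre is driven by the Lyz2 (lysozyme M) gene and so acts in the myeloid lineage. Pairs carry the same number and batch letter on the labels and are called litters 1 to 6, since the study matched and adjusted by litter. Age and sex of the mice are not on the labels.

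Macrophages take in iron with transferrin, from red cells they digest and from the divalent metal pool of the phagosome. They keep iron in ferritin, a shell built of heavy and light chains, and release it through ferroportin, the product of Slc40a1. In an inflamed host, holding iron inside the macrophage withholds it from microbes, and lipocalin 2, the product of Lcn2, binds the siderophores by which bacteria collect it. The iron regulatory proteins, made from Aco1 and Ireb2, bind a hairpin in mRNA called the iron-responsive element when iron is scarce. Bound in the 5′ UTR the hairpin holds back translation, and bound in the 3′ UTR it protects the mRNA from decay. A transcript level therefore does not give the amount of ferritin or ferroportin protein.

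The hairpins are shown because the iron regulatory proteins act through them and because the members differ in where they carry one. In the listed transcripts of the 10 genes, CAGTGN was searched on the transcript's own strand, closing a loop of 6 bases over 5 paired bases (G with T allowed) with an unpaired C 5′ of the stem. Each line gives 29 bases, 5′ to 3′, with the loop in capitals, from GENCODE M21 on GRCm38.
Fth1 5′ UTR, chr19:9982732-9982760, plus strand: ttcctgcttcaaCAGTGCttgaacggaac
Ftl1 5′ UTR, chr7:45459779-45459807, minus strand: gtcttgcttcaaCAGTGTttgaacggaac
Slc40a1 5′ UTR, chr1:45925465-45925493, minus strand: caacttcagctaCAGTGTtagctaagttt
Tfrc 3′ UTR, chr16:32631219-32631247, plus strand: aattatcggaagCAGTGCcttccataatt
Tfrc 3′ UTR, chr16:32631598-32631626, plus strand: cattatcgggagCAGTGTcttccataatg
Tfrc 3′ UTR, chr16:32631663-32631691, plus strand: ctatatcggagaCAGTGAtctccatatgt
Tfrc 3′ UTR, chr16:32631710-32631738, plus strand: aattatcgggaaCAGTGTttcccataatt

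The 3 genes with the hairpin in the 5′ UTR were both ferritin chains and the exporter, and Tfrc had 4 in its 3′ UTR. Among 28805 listed transcripts with a coding sequence, 23 (0.0798%) had such a match in the 5′ UTR and 138 (0.479%) in the 3′ UTR. The listed transcripts of Hfe, Slc11a1, Slc11a2, Lcn2, Aco1 and Ireb2 held no match of this form in a UTR, which says only that these letters with this pairing are not there.

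The labels were first set against the data. Erbb4 itself was under 1 TPM in all 12 libraries. It was between 0.280 and 0.852 TPM in libraries labelled ErbB4myeKO and between 0.372 and 0.716 in those labelled ErbB4FF, and a level over the whole transcript does not show a deleted exon. Lyz2, whose locus carries the Cre, was lower in the library labelled ErbB4myeKO in litters 1 to 5 (log2 ratio between -1.20 and -0.81) and higher in litter 6 (1.43). Its close paralog Lyz1, which can share reads with it, went the other way in each litter, higher in litters 1 to 5 (1.41 to 2.18) and lower in litter 6 (-0.94). Neither gene separated the genotypes in every litter, so groups are named by their labels and the differences of the members are also given without litter 6. Whether the libraries of litter 6 were exchanged was not tested, and an exchange would turn the sign of every ratio of that litter, so that counts over 6 litters hold only as the libraries are labelled. Of the 8780 genes tested, 342 were higher and 356 lower in libraries labelled ErbB4myeKO in litters 1 to 5. In all 6 litters 220 were higher and 203 lower. Il12b and Tnf, picked here with their values known, were higher in 6 of 6. Macrophage markers were high in every library, with summed levels between 7179 and 15964 TPM, led by Lyz2 and Cd14. Their sum was lower in libraries labelled ErbB4myeKO in 5 of 6 litters, as was Lyz2 itself, and without Lyz2 the sum was higher in 4 and lower in 2. The M1 genes, led by Il1b and Il12b, summed to between 11416 and 43969 TPM and were higher in libraries labelled ErbB4myeKO in 5 of 6 litters. However, Cxcl10 of this list, named with its values known, was lower in 6 and Nos2 in 4. Nos2 was at 0 TPM in both libraries of litter 5 and the ErbB4myeKO library of litter 3. It was 0.042 and 0.011 TPM in the ErbB4myeKO libraries of litters 2 and 6 and 0.22 TPM in the ErbB4FF library of litter 1. Its highest value was 139.4 TPM.

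Markers of other cells were low. The summed level of 9 listed erythroid genes stayed between 0 and 0.696 TPM in libraries labelled ErbB4myeKO and between 0 and 1.11 in those labelled ErbB4FF, with Hba-a2, Hbb-bs, Alas2 and Slc4a1 at 0 in every library. The 6 lymphocyte genes summed to at most 0.654 TPM. The 10 neutrophil genes, led by Ngp and Camp and with Retnlg at 0 throughout, summed to between 3.39 and 32.3 TPM and were highest in litters 5 and 6. The 6 dendritic cell genes, led by Xcr1 and Clec9a and with Cd209a and Siglech at 0 throughout, summed to between 8.95 and 33.4 TPM in libraries labelled ErbB4myeKO and between 4.47 and 25.5 in those labelled ErbB4FF, higher in the former in 6 of 6 litters. Proliferation genes, led by Mki67 and Cdk1, summed to between 18.2 and 49.6 TPM and were higher in libraries labelled ErbB4myeKO in 4 of 6 litters, as were the neutrophil genes in 3. In bulk samples, fewer cells of a type and less RNA per cell cannot be told apart.

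Litter 5 stood apart by transcript length in both of its libraries. The median transcript under 1 kb was 0.70 and 0.73 above its mean over the 12 libraries on the log2 scale, and the median transcript over 4 kb was 0.42 and 0.47 below it (-0.42 and -0.47). In the other 10 libraries these medians ran from -0.43 to 0.26 and from -0.10 to 0.21. Littermates lay further apart in litters 3 and 6 than in litter 5. In litter 3 the medians under 1 kb were -0.43 (ErbB4myeKO) and -0.20 (ErbB4FF). In litter 6 those over 4 kb were 0.03 (ErbB4myeKO) and -0.10 (ErbB4FF). Among the members, the listed transcripts of Fth1 (0.929 kb), Ftl1 (0.968 kb) and Lcn2 (0.915 kb) fell into the shortest class, and those of Tfrc (4.89 kb) and Ireb2 (5.77 kb) into the longest. Whether transcript length moved the members' levels in litter 5, or their ratios in litters 3 and 6, was not tested.

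**Figure D1:**
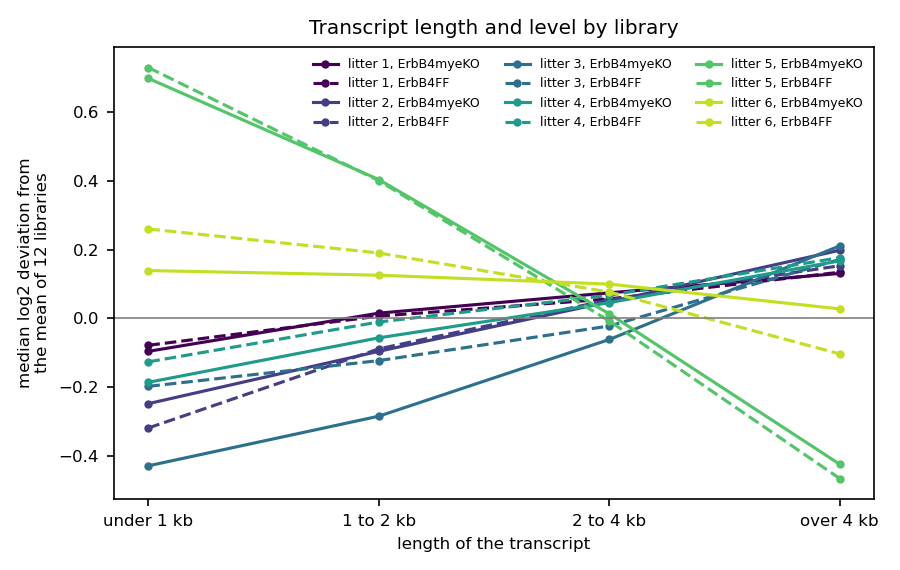
Median log2 deviation of a transcript's TPM from its mean over the 12 libraries (y axis), by class of transcript length (x axis), 1 line per library, solid for ErbB4myeKO and dashed for ErbB4FF. Both lines of litter 5 run from about 0.7 for transcripts under 1 kb to below -0.42 over 4 kb, and the other 10 libraries stay between -0.43 and 0.26.

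The members spanned 4 orders of magnitude in level per length. In order of the mean log2 level they ran Fth1, Ftl1, Lcn2, Slc11a1, Slc11a2, Ireb2, Aco1, Tfrc, Slc40a1 and Hfe, with medians over the 12 libraries of 25870, 6905, 385.4, 225.3, 53.0, 22.4, 8.18, 9.34, 4.01 and 2.61 TPM. Fth1 was above Ftl1, and Ftl1 above Lcn2, in 12 of 12 libraries, as were Slc11a1 above Slc11a2 and Slc11a2 above Ireb2. Ireb2 was above Aco1 in 11 of 12. Other neighbours did not differ beyond their spread. The paired log2 difference was 0.55 ± 0.89 (SD, n = 12) between Lcn2 and Slc11a1, 0.25 ± 1.27 between Aco1 and Tfrc, 0.68 ± 1.32 between Tfrc and Slc40a1, and 0.66 ± 1.05 between Slc40a1 and Hfe.

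**Figure D2:**
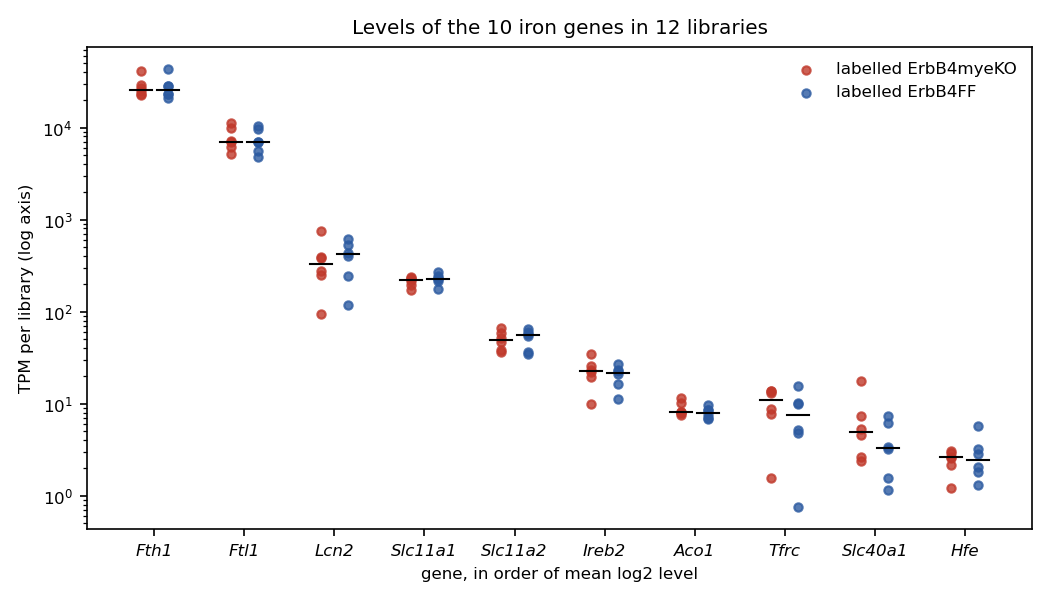
TPM of each member (log axis) in the 6 libraries of each genotype, with the genes in order of mean log2 level and black bars at the medians. The genotypes overlap for all 10 genes, and the scale runs from 0.752 TPM for Tfrc to 43296 TPM for Fth1.

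Ferritin took a large part of the mRNA. Fth1 and Ftl1 together made up between 4.58% and 7.29% of the TPM listed for a library (median 5.15%), and Fth1 had the highest level of the genes listed in every library. The listed transcripts held between 59.0% and 74.7% of a library's TPM, and the rest was not analysed here. Fth1, the heavy chain with ferroxidase activity, was lowest at 22740 TPM, with a median of 25870 and a highest value of 40720, in libraries labelled ErbB4myeKO. The corresponding values in libraries labelled ErbB4FF were 21180, 25680 and 43296 TPM, so the groups overlapped almost completely. The highest value of either genotype was that of litter 5, and the limma log2 difference was 0.02 (95% interval -0.13 to 0.16), or 0.01 without litter 6.

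Ftl1, the light chain that favours iron mineral formation, was between 5218 and 11333 TPM (median 6987) in libraries labelled ErbB4myeKO. In those labelled ErbB4FF it was between 4794 and 10514 TPM (median 6899). It was higher in the former in 5 of 6 litters, by a log2 difference of 0.07 (95% interval -0.07 to 0.22, exact permutation p = 0.156), which was 0.11 without litter 6 and 0.04 without litter 5. Of the 31-mers of its transcript, 85.4% also occur in other genes, 80.6% in Ftl1-ps1, a processed copy listed at 28.4 to 87.0 TPM, so the split of reads between these copies is uncertain. For Fth1 the share was 12.9%. The ferritin relatives Ftmt and Fthl17a to Fthl17f were at 0 TPM in every library.

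The ratio of the chains, Fth1 TPM over Ftl1 TPM, was 3.70 ± 0.62 (SD, n = 6) in libraries labelled ErbB4myeKO and 3.89 ± 0.83 (n = 6) in those labelled ErbB4FF. It was highest in litter 2, at 4.77 and 4.78, and lowest in litter 6, at 2.97 and 2.70. The 2 libraries of a litter lay close to each other, with the widest gap in litter 5 (3.59 against 4.52). The log2 difference between genotypes was -0.05 and did not pass the exact permutation test over the 64 swaps within litters (p = 0.531, two-sided, 2 of 6 litters higher). Without litter 6 it was -0.09 (p = 0.312 over 32 swaps, exact), and without litter 5 it was 0.00048 (p = 1).

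Slc40a1 (chr1:45908068-45926523, minus strand, GRCm38), the only known cellular iron exporter, was the member with the largest difference between the labelled genotypes, with and without litter 6. Without litter 3 the log2 difference of Tfrc was the larger (0.58, against 0.54 for Slc40a1). In litters 1 to 6 the libraries labelled ErbB4myeKO had 5.31, 2.65, 17.7, 2.41, 4.60 and 7.39 TPM. Their littermates labelled ErbB4FF had 3.19, 1.56, 7.39, 1.15, 3.43 and 6.21 TPM. The library labelled ErbB4myeKO was the higher in 6 of 6 litters as labelled, and in 5 of 5 without litter 6, while the ranges of the genotypes overlapped, since litters differed by up to 5.46-fold in their mean. The log2 ratios were 0.65, 0.61, 1.20, 0.82, 0.38 and 0.23, smallest in litter 6.

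The limma log2 difference of Slc40a1 was 0.65 (SE 0.15, 95% interval 0.31 to 0.99), which is 1.57-fold on the scale of TPM plus 0.5. Its exact permutation p was 0.0312, the smallest that 64 swaps can give, and its unadjusted limma p was 0.00249, but the Benjamini-Hochberg adjusted p over 8780 genes was 0.603, so it did not pass the threshold of 0.05. Without litter 6 the exact permutation p was 0.0625, the smallest that 32 swaps can give. The limma difference was then 0.73 (SE 0.16, adjusted p = 0.767), without litter 3, whose library labelled ErbB4myeKO held the highest value, it was 0.54 (SE 0.13, adjusted p = 0.515), and without litters 5 and 6 it was 0.82. No 31-mer of the Slc40a1 transcript occurs in another gene. The authors' mean of normalized counts for it was 83.0 as a geometric mean, against 116791 for Fth1, so its values rest on far fewer reads. The summed dendritic cell markers were higher in the same 6 libraries, although Xcr1, which made up most of the sum, and Clec9a were each higher in 5 of 6 litters, Zbtb46 was lower in 4 and Flt3 was higher in 2 and lower in 2. The summed M1 genes were higher in 5 of 6 litters. The summed macrophage markers other than Lyz2, led by Cd14, were higher in 4. Of these, named with their values known, Mertk was higher in 6 of 6 litters, Fcgr1 was lower in 6 and Itgam lower in 5. The part of these cells and genes in the result was not tested. The hairpin of its 5′ UTR is shown above.

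Tfrc, which brings in transferrin with its iron, varied most between litters. The libraries labelled ErbB4myeKO had 13.1, 13.9, 8.82, 7.81, 1.56 and 13.6 TPM in litters 1 to 6. Those labelled ErbB4FF had 15.8, 4.77, 10.3, 5.12, 0.752 and 9.86 TPM. Both libraries of litter 5 were the lowest of their genotype, and litter means spanned 9.25-fold. Within litters the library labelled ErbB4myeKO was higher in 4 of 6, with a log2 ratio of 1.45 in litter 2, and lower in litters 1 and 3. The limma log2 difference was 0.45 (SE 0.22, 95% interval -0.07 to 0.98, adjusted p = 0.603) and its exact permutation p was 0.156. It was 0.25 without litter 2, 0.45 without litter 6, 0.58 without litter 3 and 0.59 without litter 1, and in these last fits the unadjusted limma p went under 0.05 while the adjusted p did not.

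Hfe, an MHC class I-like protein that binds the transferrin receptor, had the lowest mean log2 level, though not beyond its spread against Slc40a1, which was above it in 9 of 12 libraries. It was between 1.21 and 3.07 TPM (median 2.61) in libraries labelled ErbB4myeKO and between 1.30 and 5.65 TPM (median 2.43) in those labelled ErbB4FF. The highest value was that of the ErbB4FF library of litter 6. The genotypes overlapped, 3 litters were higher and 3 lower, and the log2 difference was -0.10 (95% interval -0.59 to 0.38), against 0.05 without litter 6.

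**Figure D3:**
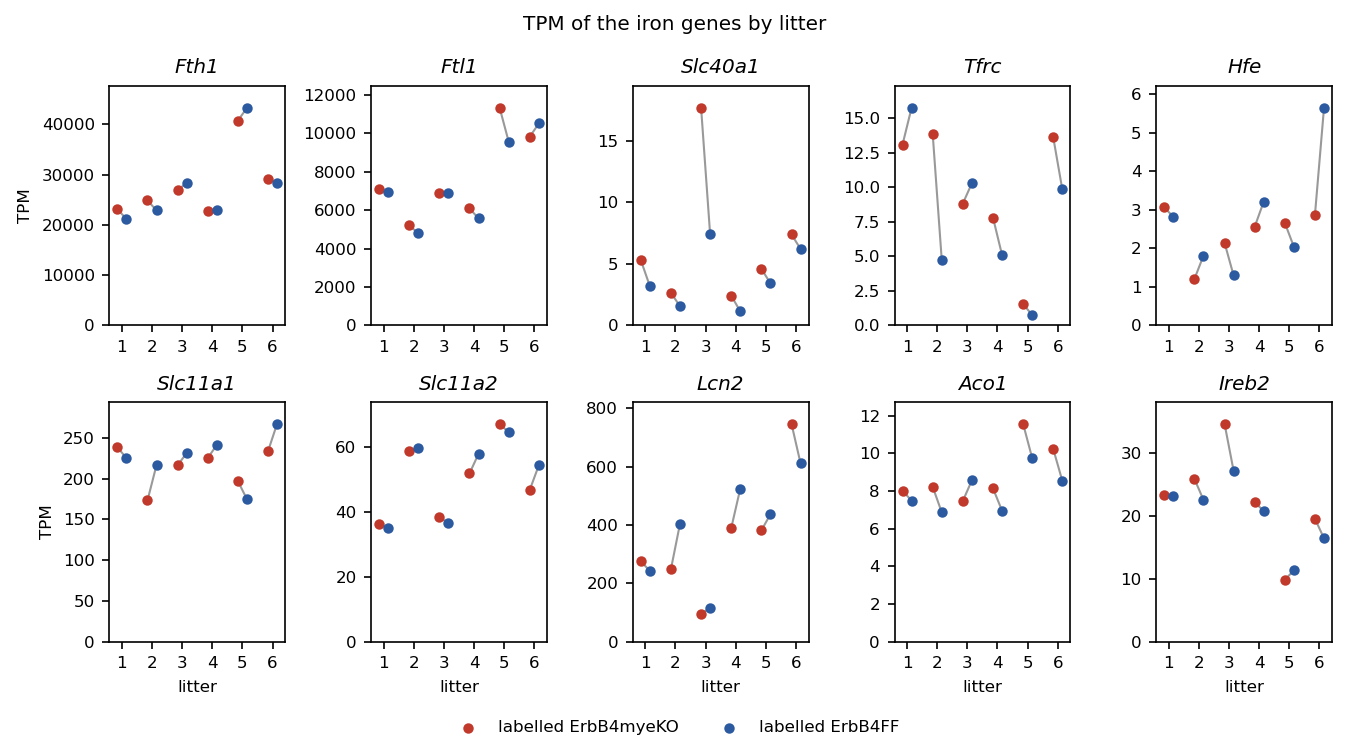
TPM of each member (y axes from 0) in litters 1 to 6 (x axes), with the ErbB4myeKO library in red, its ErbB4FF littermate in blue and a grey line joining the pair. Slc40a1 is higher in red in 6 of 6 litters, and for the other genes the pairs run in both directions.

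Slc11a1 (Nramp1), which moves divalent metal out of the phagosome, was the steadiest member. It was between 173.3 and 238.7 TPM (median 220.9) in libraries labelled ErbB4myeKO and between 174.8 and 267.3 TPM (median 228.4) in those labelled ErbB4FF, a 1.54-fold span over all 12. Litter means differed by no more than 1.35-fold. Within litters it was higher in libraries labelled ErbB4myeKO in 2 and lower in 4, by a log2 difference of -0.08 (95% interval -0.25 to 0.10). It was -0.05 without litter 6, -0.03 without litter 2 and -0.13 without litter 5.

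Slc11a2 (DMT1), which carries iron across the endosome membrane after uptake with transferrin, was 4.41-fold below Slc11a1 in level per length, as a geometric mean. It was between 36.2 and 67.0 TPM (median 49.2) in libraries labelled ErbB4myeKO and between 34.9 and 64.3 TPM (median 56.0) in those labelled ErbB4FF. Litters 1 and 3 were the lowest and litter 5 the highest in both genotypes. The log2 difference was -0.03 (95% interval -0.19 to 0.12), with 3 litters in each direction, and was 0.0015 without litter 6. On the opposite strand it overlaps Gm5475, which reached at most 0.302 TPM.

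Lcn2 varied widely, and its level was above that of Slc11a1 in 10 of 12 libraries. In litters 1 to 6 it was 275.6, 248.9, 93.2, 389.4, 381.4 and 746.9 TPM in libraries labelled ErbB4myeKO. In those labelled ErbB4FF it was 242.5, 403.9, 116.9, 524.3, 436.6 and 611.6 TPM. Both libraries of litter 3 were the lowest and both of litter 6 the highest of their genotype, and litter means spanned 6.45-fold. The library labelled ErbB4myeKO was lower in 4 litters and higher in litters 1 and 6, and the log2 difference was -0.20 (SE 0.13, 95% interval -0.50 to 0.11, adjusted p = 0.668). Without litter 6 it was -0.29, and without litter 2, which held the widest gap, it was -0.095. Neutrophils also make lipocalin 2, and the summed neutrophil markers were likewise lowest in the ErbB4myeKO library of litter 3 (3.39 TPM) and raised in both libraries of litter 6 (21.1 and 14.6 TPM), but were not lowest in its littermate (6.65 TPM) and were highest in litter 5 (32.3 and 24.5 TPM). Their part in the level of Lcn2 was not tested.

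Aco1, the cytosolic aconitase that turns into iron regulatory protein 1 when it loses its iron-sulfur cluster, was between 7.46 and 11.6 TPM (median 8.18) in libraries labelled ErbB4myeKO. In those labelled ErbB4FF it was between 6.86 and 9.75 TPM (median 8.01). It was higher in the former in 5 of 6 litters, with log2 ratios of 0.09 to 0.25, and lower in litter 3 (-0.19). The limma log2 difference was 0.14 (SE 0.09, 95% interval -0.08 to 0.36, adjusted p = 0.663), 0.12 without litter 6, and 0.21 without litter 3, where the unadjusted limma p alone went under 0.05.

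Ireb2, which encodes iron regulatory protein 2, was between 9.85 and 34.7 TPM (median 22.8) in libraries labelled ErbB4myeKO and between 11.3 and 27.2 TPM (median 21.7) in those labelled ErbB4FF. Both libraries of litter 5 were the lowest and both of litter 3 the highest. The library labelled ErbB4myeKO was higher in 5 of 6 litters, by a log2 difference of 0.12 (95% interval -0.09 to 0.32), by 0.09 without litter 6, by 0.07 without litter 3 and by 0.18 without litter 5.

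Counted together, 0 of the 10 members passed an adjusted limma p under 0.05, as did 0 (0%) of the 8780 genes tested, of which the smallest adjusted p was 0.603. At an unadjusted limma p under 0.05, 1 member passed, Slc40a1, beside 8.21% of all genes, and it was higher in libraries labelled ErbB4myeKO, as were 3.83% of all genes at this limit, while 4.38% of all genes and 0 members were lower. The library labelled ErbB4myeKO was the higher in all 6 litters for 1 member and for 2.51% of all genes, and the lower for 0 members and for 2.31% of all genes. In litters 1 to 5 alone it was the higher for 2 members, Slc40a1 and Ftl1, beside 3.9% of all genes, and the lower for 0 members, beside 4.05%. Each member is 10% of the list, so these shares rest on 1 or 2 genes. The median log2 difference of the members was 0.05, beside -0.00068 over all genes, with 6 members above 0 and 4 below.

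**Figure D4:**
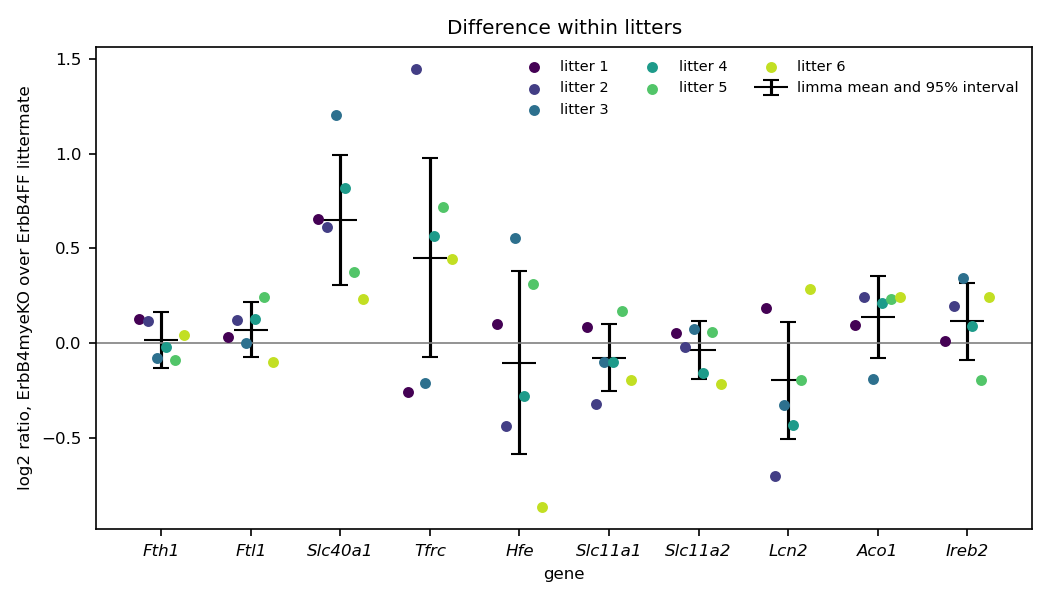
Log2 ratio of TPM plus 0.5 between the ErbB4myeKO library and its ErbB4FF littermate (y axis) for each member (x axis), as 1 coloured point per litter, with the limma mean and its 95% interval in black. The interval lies above 0 for Slc40a1 (0.31 to 0.99) and spans 0 for the other 9 members.

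The spread between litters differed among the members. The ratio between the highest and the lowest litter mean was 1.35-fold for Slc11a1, 1.39-fold for Aco1, 1.84-fold for Slc11a2, 1.90-fold for Fth1, 2.08-fold for Ftl1, 2.30-fold for Hfe, 2.82-fold for Ireb2, 5.46-fold for Slc40a1, 6.45-fold for Lcn2 and 9.25-fold for Tfrc.

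The members did not move as 1 block across the libraries. Over the 45 pairs of members, Pearson's r of log2(TPM + 0.5) across 12 libraries ran from -0.76 to 0.83, and libraries of a litter share their background, so these values are descriptions. Fth1 and Aco1 (0.83) and Ftl1 and Aco1 (0.83) had the highest r, which stayed at 0.70 and 0.72 over the 10 libraries without litter 5. The lowest were those of Fth1 with Ireb2 and with Tfrc (both -0.76), genes with short and with long transcripts, and without litter 5 they were -0.03 and 0.20. Lcn2 and Ireb2 had an r of -0.61, which was -0.92 without litter 5.

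For each member, the genes whose levels followed it most closely over the 12 libraries were sought among the 8779 other genes tested. The highest of so many values are high by selection. Values without litter 5 come from 10 of the same libraries, so they are no independent check. For Slc40a1 they were Srxn1 (r = 0.95), Slc22a4 (0.94) and Asns (0.94), and each stayed at 0.94 or 0.95 without litter 5. For Ftl1 they were its copy Ftl1-ps1 (0.95), Plk2 (0.95) and Fabp3 (0.95). For Lcn2 they were Lima1 (0.93), Zranb3 (0.92) and Aldh1l1 (0.92).

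The leading genes of 2 other members depended more on litter 5. Those of Tfrc were Rapgef1 (0.96), Nup160 (0.95) and Ttc37 (0.94), whose r without litter 5 was 0.78, 0.72 and 0.81. Those of Fth1 were Tom1 (0.98), Chchd2 (0.97) and Psmb7 (0.96), with 0.92, 0.85 and 0.84 without it. Ireb2 was followed by Ddx6, Msl2 and Lats1 (0.99 each, and 0.97, 0.97 and 0.98 without litter 5).

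Among the rest, Aco1 was followed by Ppp1r14b (0.93), Nxt1 (0.92) and Osgin1 (0.92). Slc11a1 was followed by Exoc4 (0.94), Fuca2 (0.94) and Cmklr1 (0.92), and Slc11a2 by Lrrc75a (0.94), Ubald1 (0.93) and Ifitm2 (0.91). Hfe had the weakest leaders, Tpp1 (0.89), Rsrc1 (0.87) and Pigs (0.87).

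The rest of the iron pathway was taken from a list of 63 genes, of which 62 were listed and 46 had a mean of at least 1 TPM. None passed an adjusted limma p under 0.05. At an unadjusted limma p under 0.05, 7 were higher and 7 lower in libraries labelled ErbB4myeKO, which is 30.4% of the 46 beside 8.21% of all genes (15.2% higher beside 3.83%, 15.2% lower beside 4.38%), and the median log2 difference of the 46 was 0.04. With litters 1 to 6 left out in turn the 14 became 8, 5, 7, 6, 7 and 6, beside 719, 413, 857, 458, 864 and 506 of all genes tested, which were 721 with all litters. Since genes of 1 pathway are not independent and the list was chosen with earlier results known, the counts are a description.

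Of 17 heme genes tested, 8 had an unadjusted limma p under 0.05 (47.1%, beside 30.4% of the 46 and 8.21% of all genes), and 3 or 4 when any 1 litter was left out. Hmox1, the inducible enzyme that frees iron from heme, had the highest level of the 62, between 321.6 and 2100 TPM (median 1006) in libraries labelled ErbB4myeKO and between 302.4 and 1913 TPM (median 716.9) in those labelled ErbB4FF. It was higher in the former in 6 of 6 litters, with a log2 ratio of 0.0029 in litter 5 and its largest, 0.72, in litter 6, and by 0.38 in the fit (SE 0.12, exact permutation p = 0.0312, adjusted limma p = 0.603), or 0.31 without litter 6. Hmox2, the constitutive enzyme, was lower in 5 of 6 litters (68.7 ± 31.2 TPM against 92.9 ± 27.8, SD, n = 6 each) by a log2 difference of -0.49 (SE 0.11, exact permutation p = 0.0625, adjusted limma p = 0.603). Blvrb, which reduces biliverdin, the product of heme breakdown, was 141.5 ± 41.6 against 140.4 ± 66.0 TPM.

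Other heme genes were at lower levels. Slc48a1, which brings heme out of the phagolysosome, was 74.5 ± 34.1 TPM in libraries labelled ErbB4myeKO and 65.4 ± 28.9 TPM in those labelled ErbB4FF, with a log2 difference of 0.17. Of the heme synthesis enzymes, Alas1 (0.29), the rate-limiting step, and Alad (0.40) were on the higher side, and Uros (-0.45, lower in 6 of 6 litters) and Ppox (-0.74) on the lower. The heme exporter Flvcr1 had a log2 difference of 0.76 at a mean of 1.44 against 0.764 TPM, with 2 libraries labelled ErbB4FF listed at 0, and 0.46 without litter 1, which held 1 of them.

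Outside heme, Cp, a ferroxidase that works with ferroportin, was lower in libraries labelled ErbB4myeKO in 6 of 6 litters. It had 11.2, 16.7, 5.67, 30.6, 47.8 and 32.5 TPM there and 12.9, 59.3, 9.21, 58.8, 51.3 and 44.3 TPM in the littermates, so that the genotypes overlapped and litters 2 and 4 held the widest gaps. The log2 difference was -0.68 (SE 0.21, adjusted limma p = 0.603), and the exact permutation p was 0.0312. Slc39a14, a transporter of iron not bound to transferrin, was 29.5 ± 12.1 against 24.8 ± 13.0 TPM, higher in 4 of 6 litters.

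In the cytosol, Pcbp1, a chaperone that hands iron to ferritin, was 161.6 ± 8.58 TPM against 161.4 ± 19.0 TPM, a log2 difference of 0.01 (95% interval -0.14 to 0.15). Glrx3, a glutaredoxin that carries iron-sulfur clusters, had a difference of 0.21. Among the mitochondrial genes, Nfs1, the desulfurase that supplies sulfur for iron-sulfur clusters, was lower in 6 of 6 litters by -0.22, with log2 ratios between -0.35 and -0.15. The iron importer Slc25a28 was lower in 5 of 6, by -0.26. Named after their values were seen, Fbxl5, which marks iron regulatory protein 2 for degradation, and the importer Slc25a37 were at 0 TPM in the ErbB4myeKO library of litter 3 alone, against 22.4 and 13.5 TPM in its littermate.

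Without litter 6, the mean log2 ratio was -0.45 for Hmox2, -0.73 for Cp, -0.23 for Nfs1, -0.47 for Uros, -0.89 for Ppox, -0.28 for Slc25a28, 0.18 for Slc48a1, 0.28 for Alas1, 0.50 for Alad, 0.83 for Flvcr1, 0.22 for Slc39a14 and 0.22 for Glrx3. Each kept the direction it had with all litters, which is no test, since these genes were named for their difference over the same litters. Blvrb (0.18) and Pcbp1 (0.03) were also above 0 without litter 6. However, Pcbp1 was below 0 without litter 1 (-0.012), litter 2 (-0.021) or litter 4 (-0.0045), and Blvrb was 0.02 without litter 2.

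Of the genes of systemic iron control, Hamp, which encodes hepcidin and is named here after its values were seen, had a mean of 1.66 TPM, with 2 of 12 libraries at 0. Its log2 difference was 0.40 (95% interval -0.45 to 1.25), and 0.09 without litter 6, whose own log2 ratio was 1.97. Hamp2, Hjv, Tmprss6 and Hephl1 were at 0 TPM in every library, as were Slc22a17, a receptor for lipocalin 2, and Ftmt, the mitochondrial ferritin.

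**Figure D5:**
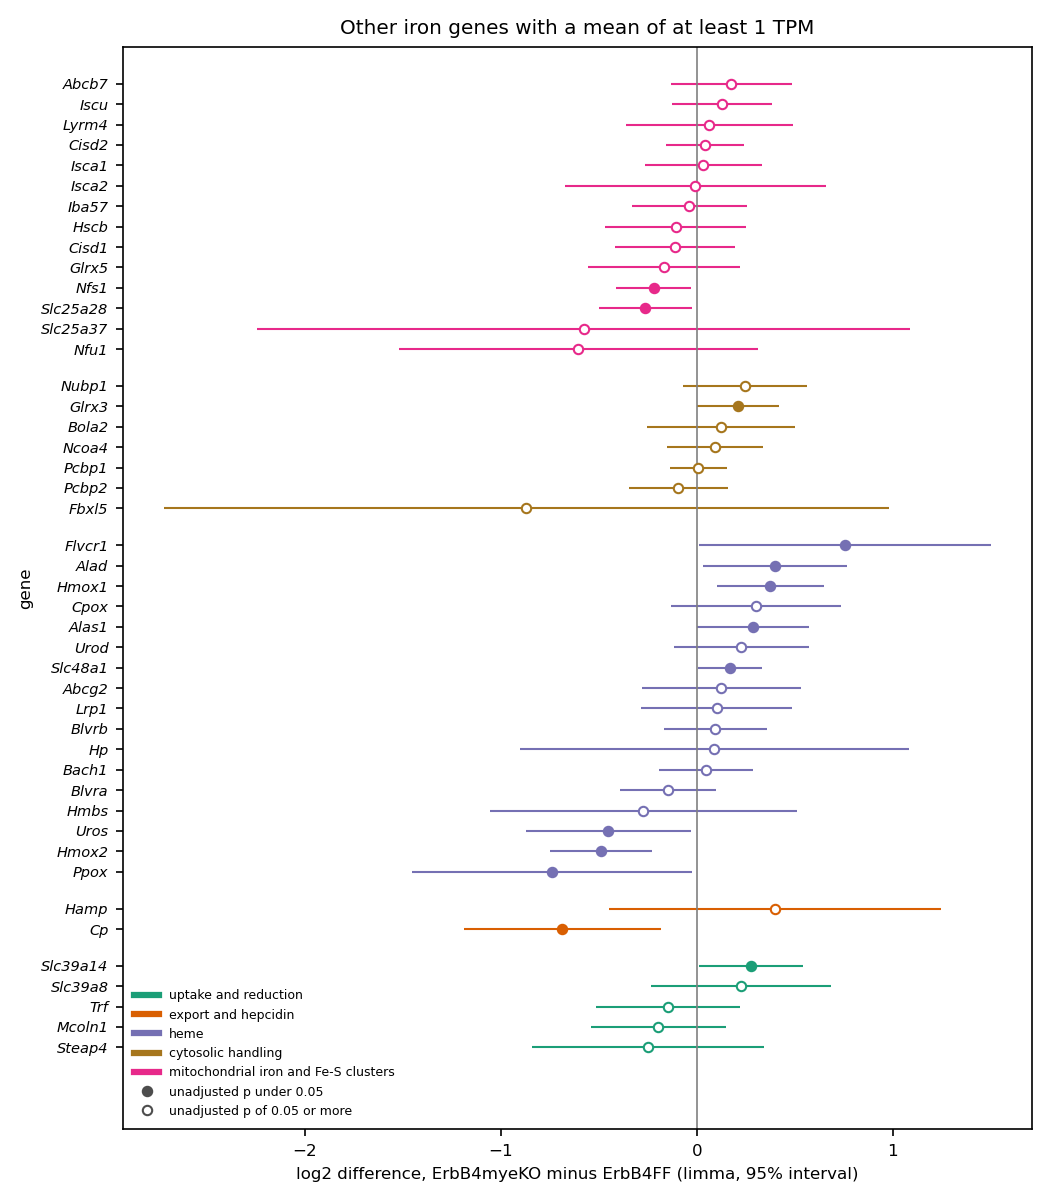
Limma log2 difference between libraries labelled ErbB4myeKO and ErbB4FF with its 95% interval (x axis) for 45 of the 46 other iron genes tested (y axis), coloured by role. Filled points have an unadjusted p under 0.05, and 7 of those drawn lie above 0 and 6 below.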

How the data were processed

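Stranded mRNA libraries of 12 BM-Mɸ cultures were sequenced as 75-nt single-end reads. The authors pseudoaligned them to the mouse transcriptome with kallisto (mm10 per the submitters' notes) and deposited TPM of transcripts that APPRIS marks as principal. A deposited column with the natural log of sleuth's normalized counts, averaged over libraries, was used as the authors' value, and sleuth's comparison columns were not used. Versions are not given in the sources used here. The table does not hold read depth. Between 10214 and 12985 genes were above 0 TPM, fewest in litter 3 (10214 in the ErbB4myeKO and 10910 in the ErbB4FF library). Precision rests on the spread between litters.

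Of 29213 lines, 405 that repeated a transcript were dropped, and TPM were summed per gene. Genes averaging 1 TPM or more (8780) entered a limma 3.58.1 fit of log2(TPM + 0.5) in R 4.3.3, blocked by litter, with a trended eBayes and Benjamini-Hochberg adjustment. Fold changes on this scale understate low genes. As a check of the pairing, littermates' deviations from the genotype means correlated by 0.273 to 0.774. For single values, exact two-sided permutation tests ran over 64 swaps within litters (32 for 5 litters). Positions came from GENCODE M21 (GRCm38), and Python 3.11.15 was used. The study also adjusted for sex, which the labels do not give, and 4 Y-linked genes served in an alternative. Ddx3y and Eif2s3y were at 0 TPM in both libraries of litters 5 and 6 and above 9 TPM in the others, so the litter block already held this difference.

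The members, the lists and the tests were chosen with earlier results of these data known. Named genes were all members, and of the other iron genes the 3 with the highest mean TPM, those with an unadjusted p under 0.05 and those moving 1 way in all 6 litters. Besides these, the 3 genes most correlated with each member, the 2 highest of each marker list and those at 0, Erbb4 and Lyz2 were named. Genes outside this rule were picked with their values known. A gene that the rule names is not reported here, but is in the counts. Alternatives were no block, the Y-linked covariate, pseudocounts of 0.1 and 1, no filter, a mean of at least 5 TPM, 2 rescalings, no trend, the highest transcript alone, each litter left out, and, chosen after seeing the data, leaving out litters 5 and 6.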

Additional observations from a re-analysis of the deposited data

Results flagged for a closer look

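There were 4 values that stood apart from the other 5 of their group by Dixon's test at the 95% level, among 30 groups of 6 values checked, where chance flags about 1 group in 20. Fth1 was far above the other libraries in both libraries of litter 5, at 40720 TPM in the one labelled ErbB4myeKO and 43296 TPM in the one labelled ErbB4FF. Slc40a1 was far above the others at 17.7 TPM in the ErbB4myeKO library of litter 3, which had the fewest genes above 0 TPM (10214). The log2 ratio of Aco1 in litter 3 was -0.19, the only one below 0 for that gene.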

How the results depend on the processing

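A gene higher in 6 of 6 litters stays higher when litters are left out or the block is dropped, so the sign of Slc40a1 was fixed there. Its log2 difference was 0.54 to 0.82 over the 17 alternatives, with adjusted limma p between 0.499 and 1.00. Its unadjusted limma p was under 0.05 in 16 of them. The exception was the fit without the replicate block (without pairing by litter), where its difference was 0.65 with an unadjusted limma p of 0.211 and an adjusted p of 1.00. Without the block, 0 members and 1 other iron gene had an unadjusted p under 0.05, beside 75 of all genes against 721 with it. The count of members at this limit lay between 1 and 3 when a litter was left out. For the other iron genes it lay between 5 and 8 when a litter was left out, in place of 14 of 46. With the Y-linked covariate it was 8, beside 653 of all 8780 genes tested. This covariate is no test of sex, since littermates matched at Ddx3y and Eif2s3y. Without litters 5 and 6 the count was 8, beside 631 of all 8576 genes tested. At a mean of at least 5 TPM it was 8 of 28 tested (28.6%, against 30.4% in the main fit), beside 540 of all 5775 genes tested. The split into higher and lower genes, 7 and 7, was 4 and 7 after median ratio rescaling and without the trend, and 3 and 7 with the highest transcript alone. The sign turned for Fth1 without litter 1 (-0.0046, the lowest of a range to 0.039) or litter 2 (-0.0029), for Hfe without litter 6 (0.051, the highest of a range from -0.23) or with the Y-linked covariate (0.0054) and for Slc11a2 without litter 6 (0.0015, the highest of a range from -0.056). The ferritin chain ratio differed by -0.05 with and without the block, by 0.00048 without litter 5 and by -0.094 without litter 6. In these results the cause was not tested. No member passed an adjusted p under 0.05 under any alternative, and at a mean of at least 5 TPM Hfe could not be fitted. Each member has 1 listed transcript, so taking the highest transcript alone left its levels as they were.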
